A study of Mus musculus with 15 samples.

Results

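The genes described here encode the endosomal sorting complexes required for transport (ESCRT), the ATPase that disassembles them, the adaptors ALIX and ALG-2, and 4 galectins that mark damaged endosomes and lysosomes. The list holds 33 genes, and all 33 were found among the 57186 genes of the deposited count table through their Ensembl mouse identifiers. By role, 3 encode ESCRT-0, 7 ESCRT-I, 3 ESCRT-II and 11 ESCRT-III subunits, 3 encode VPS4 ATPases and their cofactor, 2 encode ALIX and ALG-2, and 4 encode galectins. mRNA was measured by poly(A) RNA sequencing in RAW 264.7 cells, a mouse macrophage line, with 3 libraries in each of 5 groups, all collected at 6 h. The cells received nonporous silica nanoparticles of 100 nm (SNP100, 50 µg/mL) or 50 nm (SNP50, 25 µg/mL), mesoporous particles of about 100 nm (MSNP, 200 µg/mL), hollow mesoporous particles of about 100 nm (HMSNP, 200 µg/mL), or no particles (Control, 0 µg/mL). The doses are the largest that the study found nontoxic for each particle, so only MSNP and HMSNP were given at one dose. All groups are the same cell line, and nothing in the labels says whether the 3 libraries of a group came from separate cultures, so that the p-values measure only the spread between these libraries, which may be technical.

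ESCRT complexes bend and cut membranes away from the cytosol. ESCRT-0 and ESCRT-I gather ubiquitylated cargo on endosomes, ESCRT-II bridges to ESCRT-III, whose CHMP subunits polymerise at the membrane neck, and VPS4 takes the polymer apart. The same ESCRT-III machinery, recruited through ALIX, ALG-2 and ESCRT-I, reseals small holes in the membranes of endosomes and lysosomes, and larger holes expose sugars of the lumenal face to cytosolic galectins. Silica particles enter macrophages by endocytosis and collect in such compartments, which is the setting in which these genes are of interest.

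Total counts lay between 29369934 and 42617812 per library, and 32 of the 33 genes passed the filter of at least 10 counts summed over the 15 libraries. Chmp4c, an ESCRT-III subunit, had 7 counts in all and was not tested. Levels are given as CPM, which are counts scaled to a common library size after TMM normalization, and differences as log2 fold changes from edgeR's quasi-likelihood test. That test was fitted to the 15 libraries together, and its p-values were adjusted by the Benjamini-Hochberg method across 19839 genes. Called means an adjusted p below 0.05, and every adjusted p below comes from that test unless DESeq2 is named. All 8 macrophage markers examined had a mean of at least 10 CPM, whereas none of the markers of T cells, B cells, fibroblasts, epithelium, endothelium, neutrophils or dendritic cells did. Some markers moved with MSNP. Sums over a marker list are given in CPM of the total counts, without the TMM scaling. On that scale the macrophage list was at 15516 to 18642 CPM in Control and 12489 to 13268 in MSNP. Of its 8 genes 4 fell in MSNP, by log2 fold changes of -0.76 (adjusted p = 1.53e-06) for Fcgr1, -0.65 (adjusted p = 3.12e-05) for Csf1r, -0.46 (adjusted p = 0.00097) for Itgam and -0.39 (adjusted p = 0.0134) for Lyz2, Cd68 rose (0.68, adjusted p = 1.01e-06), and Adgre1, Ptprc and Spi1 did not pass. The summed endothelial list went from 2.54 to 5.76 CPM in Control to 8.11 to 9.86 in MSNP, nearly all of it Vwf. The summed T cell list was at 0 to 0.0872 CPM in Control and 0.287 to 0.379 in MSNP. In these unscaled sums no list other than the macrophage one exceeded 9.86 CPM in any library. Their part in the results below was not tested. Each group carries its own number in the library names, so that treatment and whatever the number stands for cannot be told apart.

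Control replicate 3 stood apart from the other libraries. Relative to the mean of all libraries the 10% of genes with the shortest transcripts had a median log2 difference of 0.55 and the 10% with the longest one of -0.69, while the next library in those directions, SNP50 replicate 1, had 0.23 and -0.17. The members followed that slope in part. Among the 16 with the shorter transcripts, 15 were higher in Control replicate 3 than in the mean of the other 2 controls, with a median log2 ratio of 0.47, and among the 16 with the longer transcripts 8 were higher, with a median of 0.01. Lgals1, the gene of galectin-1, was at 261, 254 and 435 CPM in Control replicates 1 to 3, and Pdcd6ip, which encodes ALIX, at 271, 312 and 213 CPM. The other 2 controls also differed from each other more than treated replicates did. The mean chi-square per gene, which grows as 2 libraries differ beyond counting noise, was 66.2 for Control replicates 1 and 2. Among pairs of libraries within a treated group it reached 13.9. Tests against Control thus used a spread that was shared with tighter groups. Because Control replicate 3 widens the spread of the controls and enters every test through the shared estimate of variance, counts of called members are given with and without it.

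**Figure D1:**
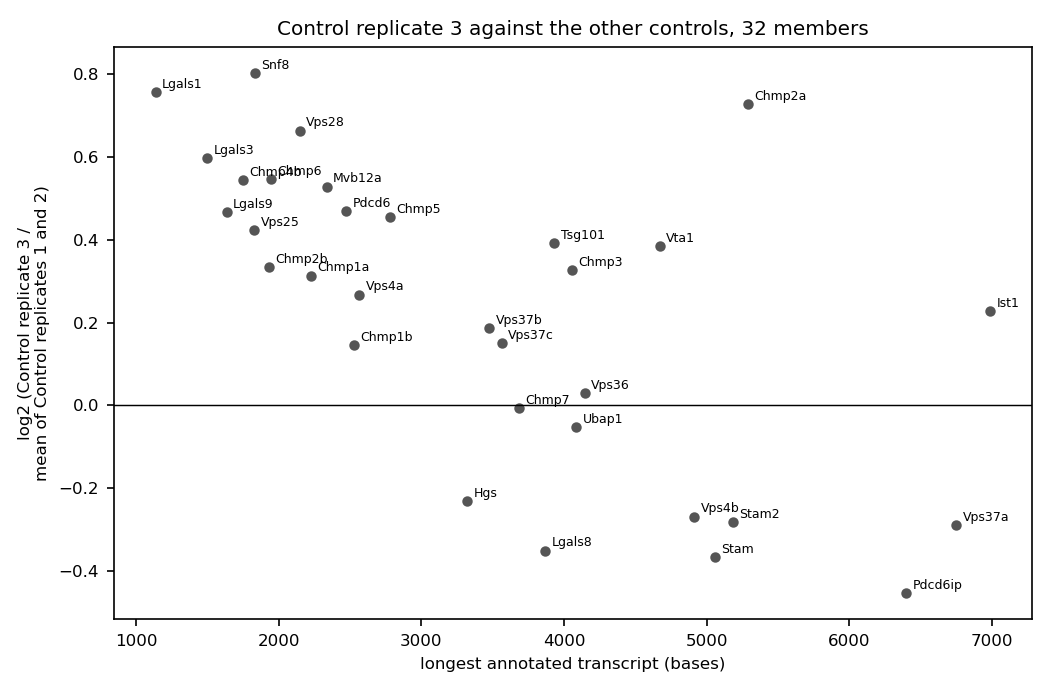
Log2 ratio of each member's level in Control replicate 3 to the mean of Control replicates 1 and 2 (y axis) against the length of its longest annotated transcript in bases (x axis), 1 point for each of the 32 tested members. Of the 16 shorter genes 15 lie above 0 and of the 16 longer genes 8 do, with Snf8 highest at 0.80 and Pdcd6ip lowest at -0.45.

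Per kilobase of the longest annotated transcript, 2 galectins stood above every ESCRT gene in nontreated cells and 2 lay among the lower members. In TPM, the length-scaled share of all transcripts, the level of Lgals3 was 1742 ± 232 (SD, n = 3 control libraries) and that of Lgals1 was 834 ± 167, whereas Lgals8 was at 39.9 ± 9.78 and Lgals9 at 30.7 ± 4.16 TPM. The highest ESCRT gene was Chmp4b, whose product is the main polymer-forming ESCRT-III subunit, at 230.5 ± 25.8 TPM. It was followed by Chmp1a at 136 ± 8.04 and Pdcd6ip at 129 ± 37.2 TPM, which did not differ beyond their spread. Lowest as counted was the ESCRT-II gene Vps25 at 4.72 ± 0.531 TPM. Vps25 shares 1133 exon bases with Ramp2 on the same strand, which leaves its level uncertain. Above it came the ESCRT-0 gene Stam at 12.5 ± 2.97 and the ESCRT-I gene Vps37a at 15 ± 3.37 TPM, and then Vta1 at 26.6 ± 1.18 and Stam2 at 26.9 ± 5.87 TPM, and within each of these pairs the levels did not differ beyond their spread. Within complexes the paralogues differed in level, with Chmp2b at 96.7 ± 2.87 against Chmp2a at 55.2 ± 10.3 TPM. That order turns over with the mean annotated length in place of the longest, which puts Chmp2a at 118 and Chmp2b at 63.5 TPM, so levels between genes carry the uncertainty of the transcript used.

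**Figure D2:**
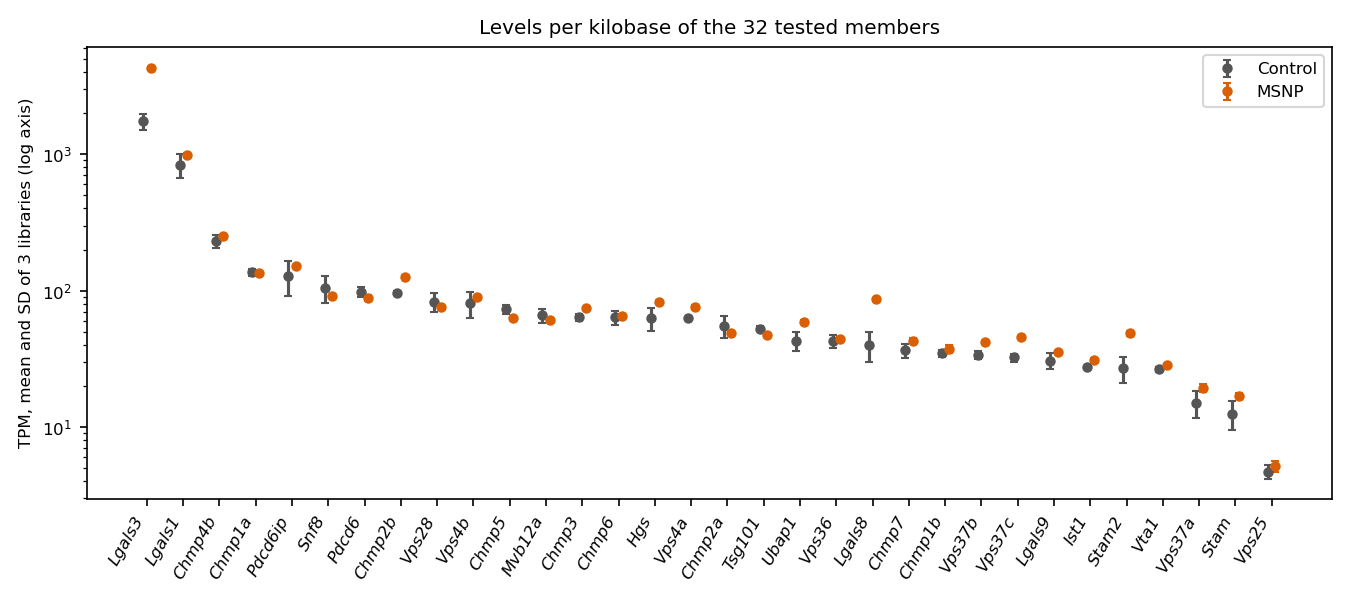
Levels per kilobase (TPM from the longest annotated transcript, log axis) of the 32 tested members in Control and MSNP cells, as the mean and SD of 3 libraries, ordered by the level in Control. Lgals3 and Lgals1 stand above all ESCRT genes, and Vps25, which shares exon bases with Ramp2, is lowest at 4.72 TPM in Control.

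MSNP gave the main response of these genes. Against Control, 12 of the 32 tested members rose and 0 fell in edgeR, where 11.8% of all tested genes rose and 11% fell. Among the 8783 genes with a mean of at least 10 CPM, which include 31 of the members, 19.6% rose and 13.7% fell. The 12 were all 3 ESCRT-0 genes (Hgs, Stam, Stam2), 4 of 7 ESCRT-I genes (Vps37a, Vps37b, Vps37c, Ubap1), 2 of 10 tested ESCRT-III genes (Chmp2b, Chmp7), 1 of 3 VPS4 genes (Vps4a) and 2 of 4 galectins (Lgals3, Lgals8). For each of them the 3 MSNP libraries lay above the 3 Control libraries. For 2 members that were not called, Tsg101 and Chmp5, the MSNP libraries lay below all Control libraries. The share of all tested genes without overlap was not computed. The median log2 fold change was 0.15 over the 32 members and -0.05 over all tested genes. At an unadjusted p below 0.05 there were 16 members in either direction. DESeq2 called 13 up and 0 down, beside 2646 of 19832 genes up and 2323 down. The levels are averages over all cells of a culture, so that a change in some cells and a change per cell cannot be told apart.

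The number called depended on the controls. Without Control replicate 3, 19 members rose and 0 fell, where 16.3% of all genes tested then rose and 13.2% fell. The 7 added were Chmp3, Chmp4b, Chmp6, Ist1, Vta1, Lgals1 and Lgals9, with log2 fold changes from 0.20 (Chmp6) to 0.50 (Lgals1). Without Control replicate 2, 13 rose, with Vps4b and Pdcd6ip added and Vps4a lost, and 5 fell, namely Tsg101, Mvb12a, Snf8, Chmp5 and Pdcd6, where 16.4% and 16.8% of all genes did. With an offset for each library's trend with transcript length, 16 rose and 2 fell, Tsg101 by -0.21 (adjusted p = 0.0433) and Chmp5 by -0.17 (adjusted p = 0.0441), where 13.7% and 13.4% of all genes did. In a model of the 6 libraries alone, 6 rose (Hgs, Stam2, Vps37c, Ubap1, Lgals3 and Lgals8) and 0 fell, where 7.37% and 5.61% of all genes did.

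**Figure D3:**
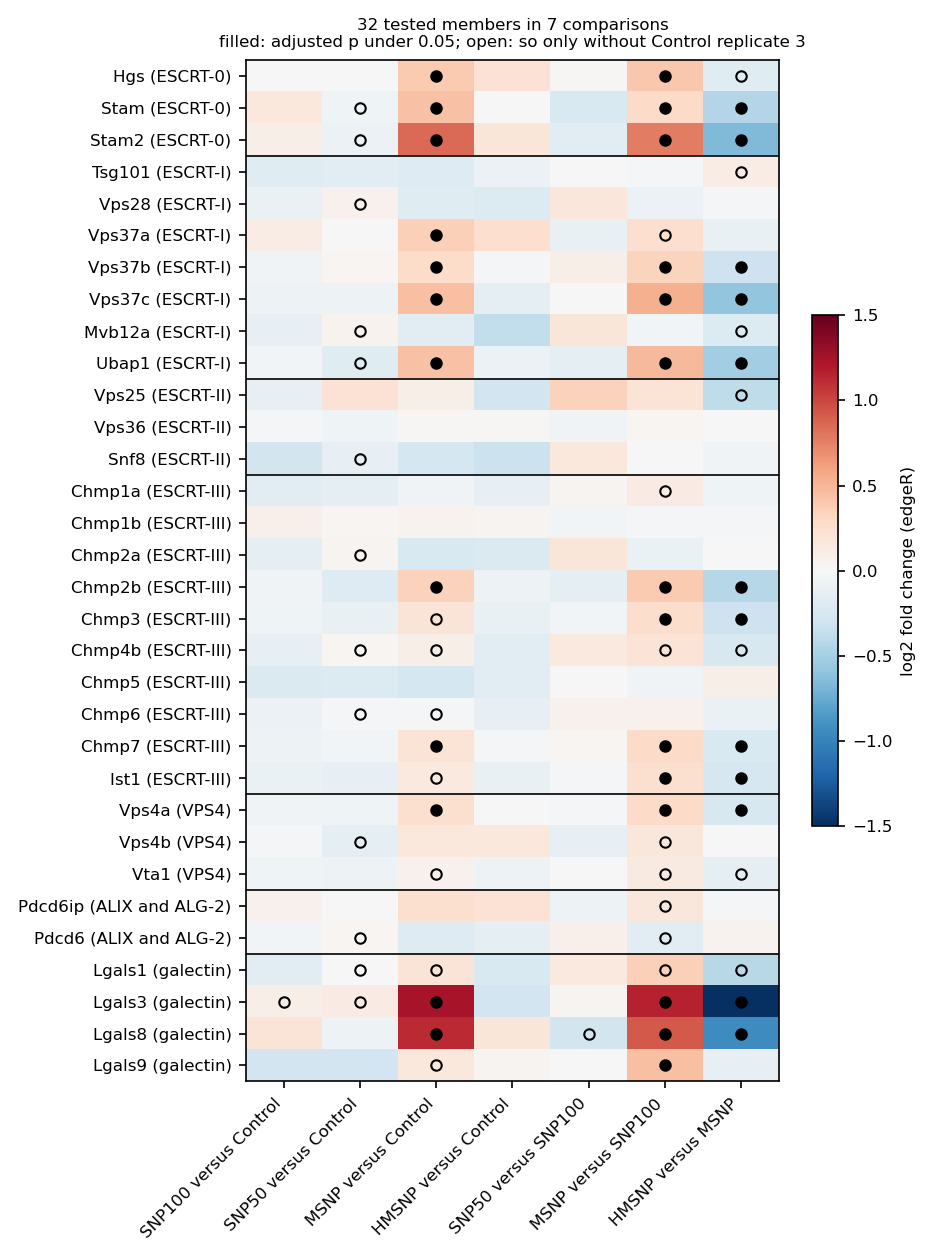
Log2 fold changes (color) of the 32 tested members, in rows by role, in 7 comparisons, in columns. Filled circles mark an adjusted p under 0.05 and open circles mark members that pass only without Control replicate 3. Filled circles stand in the columns of MSNP against Control (12), MSNP against SNP100 (14) and HMSNP against MSNP (12), and in no other column.

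The largest changes were in the galectins. Lgals3 (ENSMUSG00000050335, chromosome 14, 47605208 to 47623624 in GRCm39), whose product gathers on broken endosomes and lysosomes, was at 745, 738 and 1123 CPM in Control and at 2098, 2028 and 2032 CPM in MSNP. It was at 938, 918 and 918 CPM in SNP100, 1014, 950.1 and 881 in SNP50 and 715, 711 and 703 in HMSNP. MSNP libraries were the highest and HMSNP libraries the lowest, with no overlap between them and any other group. The level in MSNP was 2.36 times that in Control (log2 fold change 1.24, SE 0.12, adjusted p = 1.97e-06), and over the fits that each left out 1 library the log2 fold change was 1.14 to 1.48.

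Lgals8 (ENSMUSG00000057554, chromosome 13, 12454282 to 12479840), whose product binds exposed sugars and recruits autophagy receptors, was at 51.6, 56 and 42.2 CPM in Control and 112, 106 and 108 in MSNP. The other treated libraries lay between 43.5 and 60.3 CPM, so that MSNP stood alone. The rise in MSNP was 2.17-fold (log2 fold change 1.12, SE 0.092, adjusted p = 2.74e-07). Exons of Lgals8 share 155 bases with Heatr1 on the opposite strand. Lgals9 was at 13.4, 16.1 and 20.4 CPM in Control, 14, 13.8 and 13 in SNP100, 12.9, 14.4 and 13.7 in SNP50, 18.6, 18.2 and 18.8 in MSNP and 15.9, 19.3 and 16 in HMSNP. Its Control and MSNP libraries overlapped, and the log2 fold change of 0.16 did not pass (adjusted p = 0.395). Lgals1, at 371, 361 and 352 CPM in MSNP, lay above Control replicates 1 and 2 and below Control replicate 3, and its log2 fold change of 0.19 (adjusted p = 0.394) became 0.50 (adjusted p = 1.48e-07) without that library. Exons of Lgals1 share 518 bases with Gm30368 on the opposite strand.

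**Figure D4:**
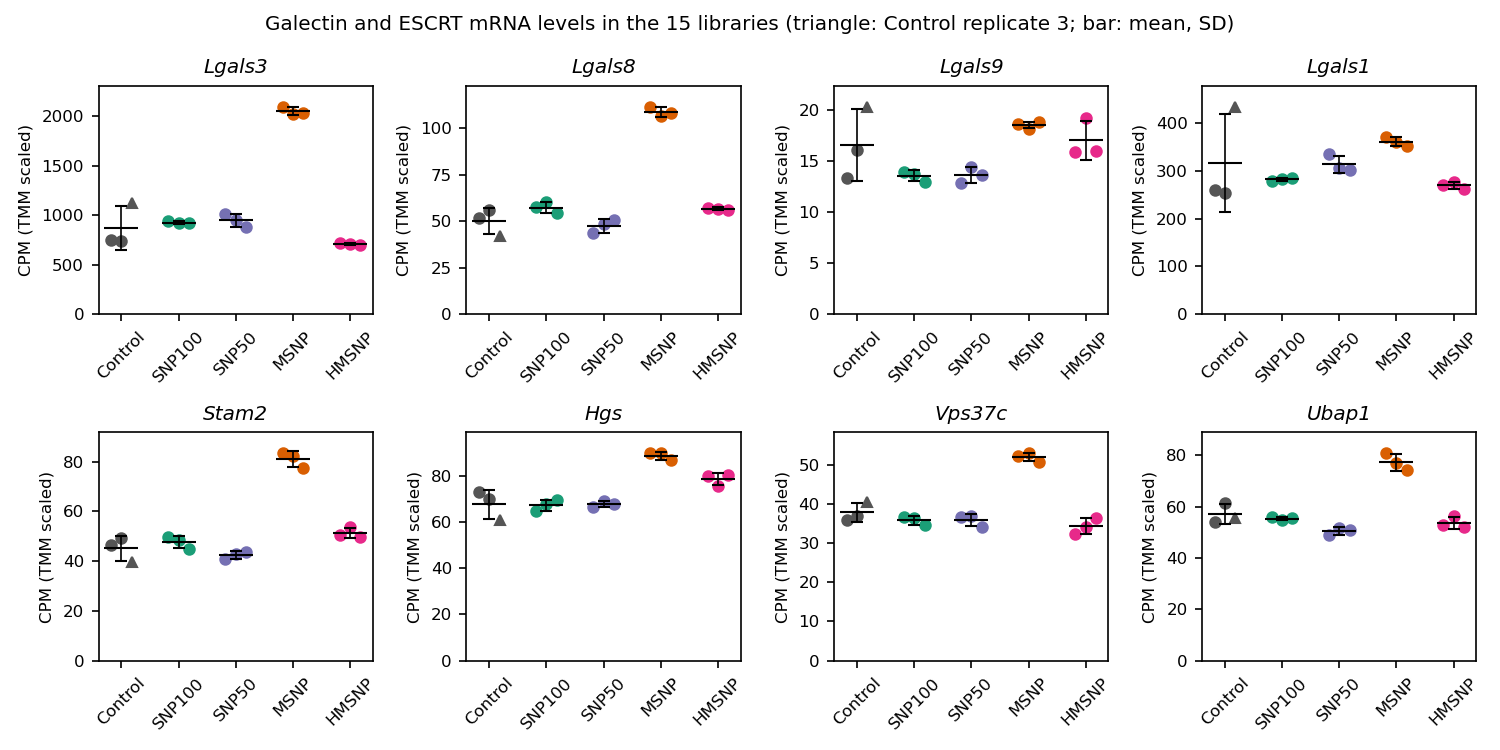
TMM-scaled CPM (y axes, from 0) of the 4 galectin genes and 4 ESCRT genes in the 15 libraries by group. Points are libraries, the triangle is Control replicate 3, and bars give the mean and SD of 3 libraries. For Lgals3, Lgals8, Stam2, Hgs, Vps37c and Ubap1 the 3 MSNP points lie above all 12 others.

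The promoters of the members were examined because genes that rise together can share sequence before their starts. A RefSeq table on GRCm38.p6, which gives 250 bases before and 50 after each start, held 24 of the 33 members. Motifs were searched on both strands in every window of a gene, namely the E-box CACGTG, which MiT/TFE factors bind among others, its extended form GTCACGTG, the M-box TCATGTG and the AP-1 element TGANTCA. A match of the extended form is also a match of the E-box. CACGTG was found in 1 of the 24 members (4.17%), Pdcd6ip, against 8.09% of all 27025 genes in the table, and its longer form GTCACGTG in the same gene against 2.55%. TCATGTG was found in 0 of 24 members against 4.31% of genes. TGANTCA was found in 3 of 24 (12.5%), Ist1, Pdcd6 and Vps37c, against 8.97%. Of the 12 members that rose in MSNP, 9 were in the table, of which 0 held CACGTG or TCATGTG and 1 held TGANTCA. These matches are descriptions of the windows and say nothing of binding. Stretches for the 2 galectins that rose, for Pdcd6ip and for Vps37c, the only risen member with a match, are printed from 5′ to 3′ on the gene's strand. Bases that GENCODE vM39 places in untranslated regions were left out for the galectins and Vps37c. For Pdcd6ip the matched site is printed with flanking bases, without leaving such bases out. Of the 250 bases before its start, 53 lie in untranslated regions. Capitals mark GTCACGTG in Pdcd6ip and TGANTCA in Vps37c, and in the galectins CCAAT and GGGCGG, common promoter elements that were added after the results were seen. CCAAT was found in 7 of 24 members (29.2%) and 41.1% of genes, and GGGCGG in 14 of 24 (58.3%) and 38.2%. A match on the other strand appears as its reverse complement. Each start is the one in the RefSeq table, and whether the galectin stretches lie before or inside the genes was not tested. The Lgals3 stretch (chr14:47373698-47373812, plus strand, 115 bases) runs from 162 to 48 bases before its start and holds no marked motif. Of the 250 bases before that start, 128 lie in untranslated regions. Outside this stretch Lgals3 matched CCAAT at 167 bases before its start and GGGCGG at 7 and -4 bases before it. The Lgals8 stretch (chr13:12461739-12461988, minus strand, 250 bases) holds CCAAT at 2 places on the other strand. The Vps37c stretch (chr19:10700518-10700767, plus strand, 250 bases) belongs to the second of its 2 starts in the table. The Pdcd6ip stretch (chr9:113708279-113708308, minus strand, 30 bases) begins 49 bases before its start.
Lgals3: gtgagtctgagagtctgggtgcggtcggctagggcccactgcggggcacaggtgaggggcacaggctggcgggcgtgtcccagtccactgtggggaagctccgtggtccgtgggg
Lgals8: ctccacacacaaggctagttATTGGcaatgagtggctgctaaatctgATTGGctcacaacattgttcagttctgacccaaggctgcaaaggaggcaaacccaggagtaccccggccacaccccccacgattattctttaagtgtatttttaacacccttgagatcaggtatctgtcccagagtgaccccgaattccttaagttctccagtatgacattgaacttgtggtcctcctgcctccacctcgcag
Vps37c: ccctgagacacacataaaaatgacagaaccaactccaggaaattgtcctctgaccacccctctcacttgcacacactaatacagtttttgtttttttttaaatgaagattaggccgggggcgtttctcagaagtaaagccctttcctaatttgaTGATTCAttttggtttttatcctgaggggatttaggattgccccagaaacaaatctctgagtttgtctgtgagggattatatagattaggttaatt
Pdcd6ip: ggtggcaccatCACGTGACcgagcggcgcg

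All 3 ESCRT-0 genes rose in MSNP. Stam2, which encodes a ubiquitin-binding partner of HRS, was at 46.5, 49.4 and 39.5 CPM in Control and 83.4, 82.2 and 77.4 in MSNP. The other treated libraries lay between 40.8 and 53.7 CPM, below every MSNP library. Its rise was the largest among the ESCRT genes, 1.8-fold (log2 fold change 0.84, SE 0.081, adjusted p = 1.44e-06). Exons of Stam2 share 293 bases with the pseudogene Gm13548 on the same strand. Hgs, which encodes HRS, the subunit that holds ESCRT-0 on the endosome, was at 72.7, 69.7 and 60.6 CPM in Control, 89.6, 89.7 and 86.7 in MSNP and 79.6, 75.3 and 80.3 in HMSNP. Both porous-particle groups lay above every Control library, and the change passed the test in MSNP (log2 fold change 0.39, SE 0.07, adjusted p = 0.000665) but not in HMSNP (log2 fold change 0.21, SE 0.07, adjusted p = 0.0935). Stam, the paralogue of Stam2, was at 22.1, 21.9 and 17.1 CPM in Control and 29.2, 27.5 and 26.3 in MSNP, with the other treated libraries between 19.1 and 23.3 CPM (log2 fold change 0.44, SE 0.089, adjusted p = 0.00193). Exons of Stam share 169 bases with Stamos, a noncoding gene on the opposite strand.

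In ESCRT-I the 3 Vps37 paralogues and Ubap1 rose in MSNP, while the other 3 subunits did not pass the test. Vps37c was at 36, 37.1 and 40.6 CPM in Control and 52.2, 53 and 50.8 in MSNP (log2 fold change 0.46, SE 0.069, adjusted p = 0.000136). Ubap1, which encodes a ubiquitin-binding ESCRT-I subunit, was at 54.1, 61.5 and 55.8 CPM in Control and 80.9, 77.1 and 74.2 in MSNP (log2 fold change 0.44, SE 0.066, adjusted p = 0.000136). The SNP100, SNP50 and HMSNP libraries lay between 32.5 and 36.8 CPM for Vps37c and between 48.8 and 56.2 for Ubap1, and for both genes every library of the other 4 groups lay below every MSNP library. Vps37a was at 33.6, 36.3 and 28.6 CPM in Control, 44.9, 42 and 39.2 in MSNP and 39.1, 39.3 and 38.8 in HMSNP, so that MSNP and HMSNP lay above the controls and overlapped each other (log2 fold change 0.36, SE 0.085, adjusted p = 0.00634 for MSNP). Vps37b was at 39.9, 33.9 and 42 CPM in Control and 46, 47.9 and 46.5 in MSNP (log2 fold change 0.28, SE 0.074, adjusted p = 0.0128), with the other treated libraries between 36.1 and 40.4 CPM, below MSNP. Exons of 3 of these genes overlap others on the opposite strand, Vps37a by 3024 bases with Mtmr7 and 948 with Cnot7, Vps37b by 1620 with Hip1r and Ubap1 by 894 with Kif24, and whether the counting used strand is not stated in the sources used here. The 3 other subunits had values below 0 in MSNP. Tsg101, the core subunit that meets ALIX and HRS, had a log2 fold change of -0.20 (adjusted p = 0.127), Vps28 one of -0.18 (adjusted p = 0.374) and Mvb12a one of -0.17 (adjusted p = 0.343). Without Control replicate 3 they came to -0.05, 0.08 and 0.04, and none passed. Exons of Vps28 share 91 bases with Tonsl on the same strand.

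With all libraries, no ESCRT-II gene was called in any of the 7 comparisons, and the 3 differed in how tightly they were measured. Vps36 varied little over all 15 libraries, from 54.6 to 61.4 CPM, and the 95% interval of its log2 fold change in MSNP was -0.10 to 0.14. Snf8 was at 53.2, 49.5 and 89.6 CPM in Control, with replicate 3 far above the rest, and at 53.5, 52.4 and 54.3 in MSNP, with an interval of -0.61 to 0.08. Its call depended on the controls, with log2 fold changes of -0.42 (adjusted p = 0.0391) in MSNP and -0.46 (adjusted p = 0.0328) in HMSNP without Control replicate 2, and of 0.20 (adjusted p = 0.0326) in SNP50 without Control replicate 3. Vps25 was the lowest tested member, at 2.38, 2.75 and 3.44 CPM in Control and 3.4, 2.86 and 2.88 in MSNP, and its exons share 1133 bases with Ramp2 on the same strand. It was called lower in HMSNP than in MSNP without Control replicate 3, by -0.39 (adjusted p = 0.02).

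Among the ESCRT-III genes, Chmp2b and Chmp7 rose in MSNP. Chmp2b, whose product is one of the late subunits that recruit VPS4, was at 57, 56.2 and 71.4 CPM in Control and 81, 76.1 and 77.5 in MSNP (log2 fold change 0.35, SE 0.084, adjusted p = 0.00723). The other treated libraries lay between 52.1 and 61.7 CPM, and MSNP exceeded all of them. Chmp7, whose product seeds ESCRT-III at the nuclear envelope, was at 43.5, 44.7 and 43.9 CPM in Control and 52.8, 51.2 and 48.5 in MSNP (log2 fold change 0.21, SE 0.06, adjusted p = 0.0198), with the other treated libraries between 41 and 44.8 CPM. The call for Chmp7 was lost without MSNP replicate 1 or 2, and over the fits that each left out 1 library its log2 fold change was 0.20 to 0.25. Chmp3 was at 75.9, 81.2 and 98.5 CPM in Control and 100.4, 96.6 and 96.2 in MSNP, and Ist1 at 60.7, 58.6 and 69.8 and 70.6, 66 and 71.9 CPM. Both overlapped the controls only through Control replicate 3 and did not pass (log2 fold changes 0.20 and 0.14, adjusted p = 0.0938 and 0.182), whereas without that library they came to 0.32 (adjusted p = 2.53e-05) and 0.23 (adjusted p = 0.00159). Chmp4b, the most abundant ESCRT-III mRNA, was at 116, 116 and 169 CPM in Control and 142, 144 and 139 in MSNP and likewise passed only without Control replicate 3 (log2 fold change 0.08 with it and 0.30 without, adjusted p = 0.656 and 0.000131). Chmp1a, Chmp1b, Chmp2a, Chmp5 and Chmp6 had log2 fold changes from -0.26 (Chmp5) to 0.06 (Chmp1b), none of which passed. Exons of Chmp2b share 306 bases with Gm36457, those of Chmp3 177 with 1700040L08Rik and those of Ist1 190 with Pkd1l3, all on the opposite strand.

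Vps4a, one of the ATPases that disassemble ESCRT-III, rose in MSNP, from 50.4, 48.6 and 59.6 CPM in Control to 64.1, 63.4 and 60 (log2 fold change 0.24, SE 0.072, adjusted p = 0.0253). The other treated libraries lay between 50.1 and 53.9 CPM, and the MSNP libraries lay above every other library, the nearest being Control replicate 3, and the call was lost without Control replicate 2, where the log2 fold change was 0.19. Its exons share 921 bases with Cog8 on the opposite strand. Its paralogue Vps4b was at 129.5, 142 and 113 CPM in Control and 145, 143 and 139 in MSNP, which overlapped (log2 fold change 0.15, adjusted p = 0.166, 95% interval -0.01 to 0.31), and the cofactor gene Vta1 did not pass either (0.07, adjusted p = 0.653). Pdcd6ip, the gene of ALIX, was at 313, 316 and 308 CPM in MSNP and 307, 317 and 301 in HMSNP, around the level of Control replicate 2. Its log2 fold changes were 0.24 (adjusted p = 0.111) and 0.22 (adjusted p = 0.203). Pdcd6, the gene of the calcium sensor ALG-2 that brings ALIX to damaged membranes, had one of -0.20 (adjusted p = 0.199) in MSNP.

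Porosity was compared at about one diameter through MSNP and SNP100, with the doses at 200 and 50 µg/mL, so that structure and dose cannot be told apart. In this comparison, 14 of 32 members were higher in MSNP and 0 lower, where 10.4% of all tested genes were higher and 7.53% lower, and among genes with a mean of at least 10 CPM 17.2% and 9.43%. Control replicate 3 is in neither group and enters here through the shared estimate of variance, the filter and the normalization. Without it, 21 were higher and 1 (Pdcd6) lower, beside 18.2% and 14.8% of all genes. The log2 differences were 1.15 (adjusted p = 6.01e-06) for Lgals3, 0.92 (adjusted p = 2.98e-06) for Lgals8 and 0.45 (adjusted p = 0.0187) for Lgals9. In ESCRT-0 they were 0.76 (adjusted p = 5.93e-06) for Stam2, 0.40 (adjusted p = 0.00067) for Hgs and 0.28 (adjusted p = 0.0392) for Stam. The other 8 were Vps37b, Vps37c, Ubap1, Chmp2b, Chmp3, Chmp7, Ist1 and Vps4a, from 0.24 (adjusted p = 0.0319) for Ist1 to 0.54 (adjusted p = 3.87e-05) for Vps37c. Chmp3, at 81, 83.2 and 79.7 CPM in SNP100, Ist1, at 59.1, 61.1 and 56.5, and Lgals9 passed here and not against Control, and both comparisons use the same MSNP libraries. When 1 library was left out, the call for Lgals9 was lost without SNP100 replicate 2 or 3 (log2 differences over all 15 such fits 0.42 to 0.48) and that for Ist1 without SNP100 replicate 1 or 3 or MSNP replicate 1 or 3 (0.21 to 0.27). The call for Chmp3 was lost without any 1 of the 6 libraries compared (0.25 to 0.28), and Stam remained called in 4 of the 15 fits (0.25 to 0.31). The median log2 difference was 0.22 over the members and -0.03 over all tested genes. DESeq2 called 15 up and 0 down, beside 2282 of 19832 genes up and 1614 down.

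The hollow and the mesoporous particles had the same dose and nominal diameter, and between them the members differed in 1 direction. Per the paper, the hollow particles also differ in density and surface composition, so that these features cannot be told apart. In HMSNP, 12 of 32 members were lower than in MSNP and 0 higher, where 11% of all tested genes were lower and 9.22% higher, and among genes with a mean of at least 10 CPM 17.5% and 11.7%. DESeq2 called 13 lower and 0 higher, beside 2334 of 19832 genes lower and 1901 higher. Without Control replicate 3, 18 were lower and 1 (Tsg101) higher, beside 18.4% and 15.5% of all genes. Lgals3 differed most, with a log2 difference of -1.53 ± 0.12 (SE, adjusted p = 2.36e-07), followed by Lgals8 with -0.94 ± 0.092 (adjusted p = 1.87e-06) and Stam2 with -0.66 ± 0.081 (adjusted p = 2.01e-05). Among the other 9, Vps37c at 32.5, 34.3 and 36.5 CPM and Ubap1 at 52.8, 56.2 and 52.1 CPM in HMSNP had differences of -0.60 (adjusted p = 1.06e-05) and -0.53 (adjusted p = 2.37e-05). Stam, Vps37b, Chmp2b, Chmp3, Chmp7, Ist1 and Vps4a had differences from -0.44 (Stam) to -0.22 (Chmp7). When 1 library was left out, the call was lost for Chmp3 without HMSNP replicate 3 (log2 differences over all 15 such fits -0.32 to -0.29), for Chmp7 without MSNP or HMSNP replicate 1 or 2 (-0.26 to -0.20), for Ist1 without MSNP replicate 3 or any HMSNP library (-0.28 to -0.22), and for Vps4a without MSNP replicate 1 or 2 or HMSNP replicate 2 or 3 (-0.27 to -0.23). Hgs, at 79.6, 75.3 and 80.3 CPM in HMSNP and 89.6, 89.7 and 86.7 in MSNP, did not overlap between the groups but did not pass (-0.18, adjusted p = 0.0947, 95% interval -0.33 to -0.03). For Pdcd6ip the difference was -0.02 with an interval of -0.23 to 0.20, and for Vps4b it was 0.01 with -0.15 to 0.17. The median log2 difference was -0.19 over the members and 0.0036 over all tested genes.

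Against Control, HMSNP changed 0 of 32 members in edgeR, where 2.46% of all tested genes rose and 2.7% fell. Of the members, 6 reached an unadjusted p below 0.05. DESeq2 called Hgs up and Mvb12a down, beside 921 of 19832 genes up and 1024 down. The largest differences were -0.37 (adjusted p = 0.0863) for Mvb12a, which was at 48.6, 40.9 and 64.5 CPM in Control and 40.3, 39.1 and 39.5 in HMSNP, and -0.32 (adjusted p = 0.231) for Snf8. Lgals3, at 715, 711 and 703 CPM in HMSNP, lay below all 3 controls by a log2 fold change of -0.29 (adjusted p = 0.165), which was -0.06 (adjusted p = 0.485) without Control replicate 3. Lgals8 had a value of 0.18 (adjusted p = 0.236) and Stam2 one of 0.19 (adjusted p = 0.182). The result turned on the controls used. Without Control replicate 3, 0 members were called, beside 4.47% of genes up and 4.2% down. Without Control replicate 2, 6 rose (Hgs, Stam2, Vps37a, Vps4b, Pdcd6ip, Lgals8) and 3 fell (Mvb12a, Snf8, Lgals3), beside 13.3% and 11.9% of all genes tested then. MSNP and HMSNP share the 3 Control libraries, so their values stand side by side and were compared only directly, as above.

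**Figure D5:**
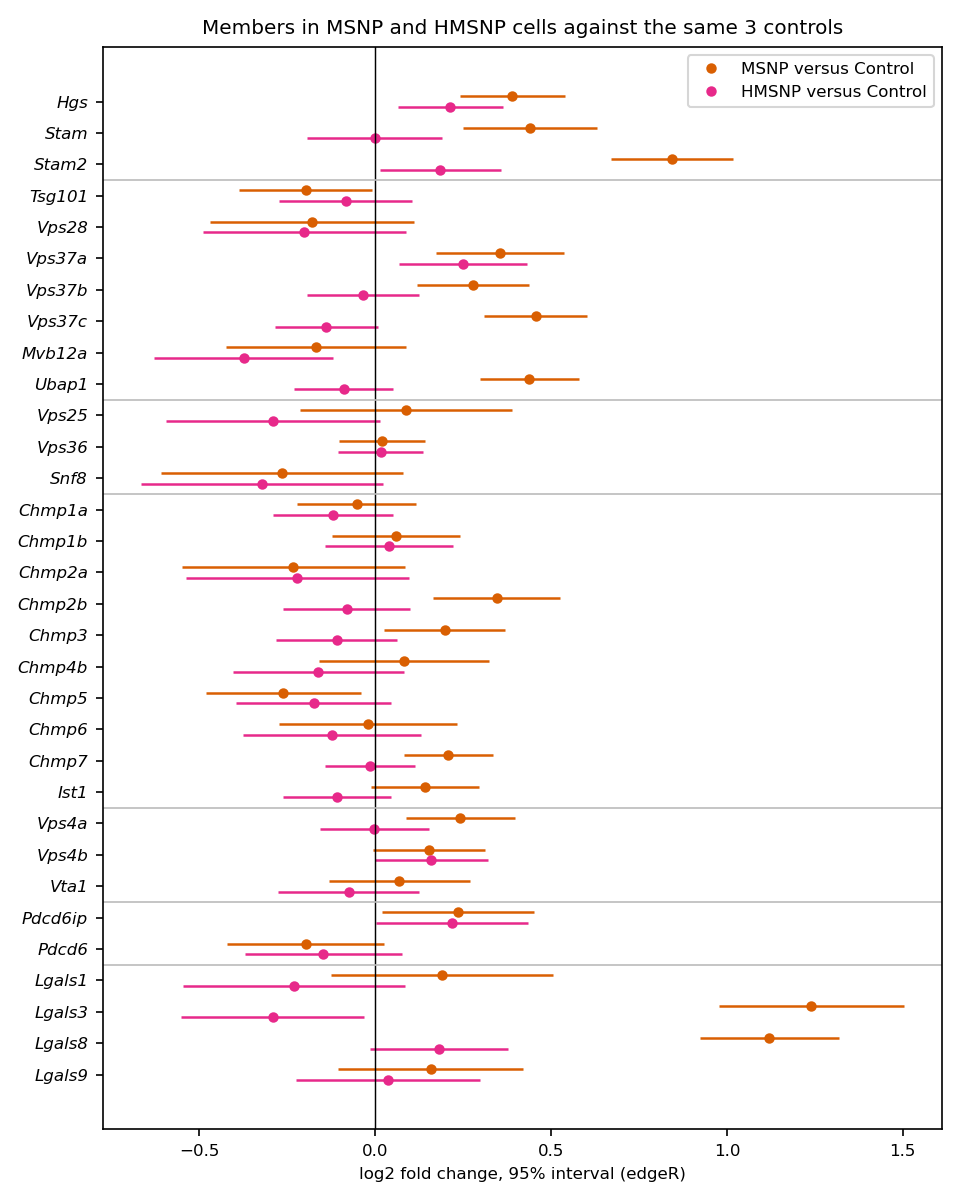
Log2 fold changes against Control (x axis) with 95% intervals for the 32 tested members, by role from ESCRT-0 to the galectins, in MSNP and in HMSNP cells, from the same 3 controls. In MSNP, Lgals3, Lgals8 and Stam2 stand farthest to the right at 1.24, 1.12 and 0.84, and in HMSNP no member passes 0.25.

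With all libraries and no correction for transcript length, no member was called for the nonporous particles. In SNP100 at 50 µg/mL, 0 of 32 members passed in edgeR, where 0.509% of all tested genes rose and 0.403% fell, 3 members reached an unadjusted p below 0.05, and 0 were called by DESeq2. In SNP50 at 25 µg/mL the counts were also 0, 3 and 0, where 0.454% of genes rose and 0.958% fell. The log2 fold changes ranged from -0.29 (Lgals9) to 0.20 (Lgals8) in SNP100 and from -0.28 (Lgals9) to 0.22 (Vps25) in SNP50. With the length offset and all libraries, Lgals3 was called up in SNP100 and no other member was, where 0.973% of genes rose and 0.852% fell. The medians without it were -0.07 and -0.07, beside -0.02 and -0.0017 over all tested genes. Without Control replicate 3, Lgals3 rose in SNP100 by 0.32 on the log2 scale (adjusted p = 0.000634) and in SNP50 by 0.35 (adjusted p = 0.00013). In SNP100 it was then the only member called, where 2.84% of genes rose and 2.32% fell. In SNP50, 9 members then rose (Vps28, Mvb12a, Snf8, Chmp2a, Chmp4b, Chmp6, Pdcd6, Lgals1, Lgals3) and 4 fell (Stam, Stam2, Ubap1, Vps4b), beside 9.63% and 9.3% of genes. In a model that also removes each library's trend with transcript length, 3 rose and 5 fell, beside 7.66% and 9.14% of genes. Of the 9 that rose, Vps28, Mvb12a, Snf8, Chmp4b, Chmp6, Pdcd6, Lgals1 and Lgals3 are among the 16 members with the shorter transcripts, and SNP50 replicate 1 was the library nearest to Control replicate 3 in its trend with length. The part of that trend in these calls was not tested further.

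Between the nonporous sizes, 0 of 32 members differed in edgeR, where 0% of all tested genes were higher or lower in SNP50. At an unadjusted p below 0.05 there were 3 members, and 0 were called by DESeq2. The doses were 25 and 50 µg/mL, so that size and dose cannot be told apart. The 2 farthest differences were -0.27 for Lgals8 (95% interval -0.47 to -0.08) and 0.34 for Vps25 (0.04 to 0.64). Lgals8 was at 43.5, 48.2 and 50.7 CPM in SNP50 and 57.4, 60.3 and 54.2 in SNP100, with no overlap, and was the 1 member that passed without Control replicate 3 (adjusted p = 0.0477), where 0.286% of genes were higher and 0.148% lower.

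Other genes of the pathway were taken from 3 lists, none of whose genes are members. Of 12 ESCRT cofactors tested, 4 rose in MSNP against Control and 0 fell, with a median log2 fold change of 0.15. As given above, 11.8% of all genes rose and 11% fell, and 19.6% and 13.7% of those with a mean of at least 10 CPM. Sdcbp, which encodes syntenin, an ALIX-binding adaptor, had a log2 fold change of 0.92 (adjusted p = 2.68e-07) and Ptpn23, an ALIX-related ESCRT adaptor, one of 1.07 (adjusted p = 0.00033). Ptpn23 was at 65.9, 65.1 and 33.2 CPM in Control, with replicate 3 far below the others, and at 108, 116 and 121 in MSNP. Mvb12b, the paralogue of Mvb12a, had 0.29 (adjusted p = 0.00859) and Cc2d1b, a regulator of CHMP polymers, had 0.20 (adjusted p = 0.0259). Sdcbp was at 389, 411 and 476 CPM in Control, 836, 799 and 783 in MSNP and 387, 386 and 353 in HMSNP, so that MSNP lay above every library of both other groups. In HMSNP against Control 0 cofactors rose and 1 fell, Lemd2 (-0.38, adjusted p = 0.0329), the nuclear envelope partner of CHMP7. Against MSNP, 4 were lower in HMSNP (Sdcbp, Mvb12b, Cc2d1b, Lemd2) and 1 higher (Cep55, 0.21, adjusted p = 0.0147), the ESCRT recruiter of dividing cells. Stambp, which encodes an ESCRT-bound deubiquitinase, was the only cofactor called in the nonporous groups, with -0.29 (adjusted p = 0.0458) in SNP100 and -0.45 (adjusted p = 0.00258) in SNP50. Of the other galectins and the galectin ligand, 4 of 7 listed genes were tested and 0 were called against Control in any treated group in edgeR, where 1 in HMSNP and 0 in the other groups had an unadjusted p below 0.05. In HMSNP, DESeq2 called 1.

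The third list held genes that repair or remove damaged lysosomes by other routes, of which 26 of 28 were tested. In MSNP, 8 rose and 3 fell, which is 30.8% and 11.5% of those tested beside 11.8% and 11% of all genes. Among genes with a mean of at least 10 CPM, 19.6% rose and 13.7% fell. The median log2 fold change of the list was 0.15, and DESeq2 called 13 up and 2 down. In HMSNP 0 were called in edgeR, where 8 had an unadjusted p below 0.05, and DESeq2 called 3 up. Among the receptors that link ubiquitylated lysosomes to autophagy, Sqstm1, which encodes p62, had a log2 fold change of 0.80 (adjusted p = 9.57e-07) in MSNP, Tax1bp1 one of 0.39 (adjusted p = 0.00589) and Optn one of 3.08 (adjusted p = 3.78e-07). Optn was low, at 0.426, 0.867 and 0.312 CPM in Control and 5.25, 4.24 and 4.06 in MSNP. Smpd1, which encodes the lysosomal acid sphingomyelinase, rose by 0.36 (adjusted p = 0.00706). Of the lipid-transfer genes of lysosome repair, Osbp had 0.26 (adjusted p = 0.0409) and Osbpl11 0.43 (adjusted p = 0.035), whereas Osbpl10 fell (-0.44, adjusted p = 0.0461). Rab10 rose (0.28, adjusted p = 0.00339) while Lrrk2, the kinase that acts on it at stressed lysosomes, fell (-0.83, adjusted p = 0.0226). Lrrk2 was at 65.6, 93.7 and 33.5 CPM in Control and 38.3, 37.7 and 32.5 in MSNP, which overlapped through Control replicate 3. Among 5 annexin genes, whose proteins bind calcium and membranes, Anxa2 fell in MSNP (-0.41, adjusted p = 0.0021) and in SNP100 (-0.40, adjusted p = 0.0365), and Anxa1, Anxa6, Anxa7 and Anxa11 did not pass in MSNP, with values from -0.16 (Anxa1) to 0.18 (Anxa7).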

How the data were processed

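Poly(A) RNA of 15 libraries of RAW 264.7 cells was sequenced from directional libraries. Per the labels and the submitters' processing notes, the authors trimmed reads with cutadapt 1.16, aligned them to GRCm39 with STAR 2.7.9a and deposited raw counts per Ensembl gene from featureCounts 1.6.3. The strand setting and annotation of the counting are not given in the sources used here. The members and gene lists were chosen with earlier results of these data known. The rule for named genes was that all 33 members were accounted for and that values per library were given for members called in at least 1 of 7 comparisons.

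Genes with at least 10 counts in all were normalized by TMM and tested in R 4.3.3 with edgeR 4.0.16 (quasi-likelihood test, Benjamini-Hochberg adjustment). A prior count of 2 was used only for the log2 CPM behind the length trends and the check of same-numbered libraries. CPM and log2 fold changes are from the same fit, and TPM used the longest transcript of GENCODE vM39, which also gave coordinates and exon overlaps. Alternatives were DESeq2 1.42.0, other normalization and filters, a replicate block, the 6 libraries of a comparison alone, each library left out, and an offset for each library's trend with transcript length (lowess of span 0.3, genes above a log2 CPM of 1). The scripts were tested on simulated data. Promoters were from RefSeq on GRCm38.p6. Replicate numbers were not treated as pairs, since the deviations of same-numbered libraries from their group means did not correlate in every pair. That check cannot exclude a shared culture or batch. The values of 1 listed gene that is no member are not reported here.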

Additional observations from a re-analysis of the deposited data

How the results depend on the processing

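Of the 38 calls of a member in a comparison, 24 held in all 23 alternatives, 14 were lost in at least 1, and 0 reversed. The number of members called against Control changed as follows. In SNP100 it was 0, and 1 with the length offset, with or without Control replicate 3. Of all genes, 193 of 19839 then rose and 169 fell with that library, and 587 of 19611 and 619 without it. In SNP50 it was 0, and 8 with the length offset and no Control replicate 3. In MSNP it was 12, 18 with the length offset (16 up and 2 down), 19 with the length offset and no Control replicate 3, and 6 in the 6 libraries of the comparison. Where it was 19, 3072 of 19611 genes rose and 3109 fell. In HMSNP it was 0, 2 in DESeq2, and 1 with the length offset, with or without Control replicate 3. With the offset, 930 of 19839 genes rose and 853 fell, and 1084 of 19611 and 1062 without that library. For SNP50 against SNP100 it was 0, and 2 with the length offset and no Control replicate 3, where 97 of 19611 genes were higher and 138 lower. For MSNP against SNP100 it was 14, and 22 both with that setting and in the 6 libraries alone. Of all genes, 3410 of 19611 were higher and 3278 lower with that setting, and 3827 of 17462 and 3315 in the 6 libraries. For HMSNP against MSNP it was 12, and 19 with the length offset and no Control replicate 3, where 3567 of 19611 genes were higher and 3450 lower. When each library was left out in turn, the counts ran from 0 to 1 in SNP100, 0 to 13 in SNP50, 11 to 19 in MSNP, 0 to 9 in HMSNP, 0 to 1 for SNP50 against SNP100, 10 to 22 for MSNP against SNP100 and 9 to 19 for HMSNP against MSNP. The highest count came without Control replicate 3, except in HMSNP, where it came without Control replicate 2. The cause of these changes was not tested. With a replicate block the counts were 12 in MSNP, 14 for MSNP against SNP100, 12 for HMSNP against MSNP and 0 in the other comparisons. Same-numbered libraries correlated between -0.517 and 0.573 in their deviations from the group means. With 3 libraries in a group, such correlations cannot tell whether same-numbered libraries shared a culture or batch. Snf8 had the widest intervals, and the 7 counts of Chmp4c allowed no test.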

Other observations

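In 5 paralogue pairs, chosen after their values were seen, the share of the pair's counts that belonged to one gene was computed. These are shares of counts without scaling for length and were not tested. Of the counts of Stam2 and Stam, Stam2 held 68.9% ± 1.04 (SD, n = 3) in Control and 74.6% ± 0.434 in MSNP, beside 67.7% ± 0.842 for SNP100, 68.5% ± 0.759 for SNP50 and 71.6% ± 1.51 for HMSNP. The MSNP libraries, at 74.1 to 74.9%, lay above those of every other group. Of the counts of Chmp2b and Chmp2a, Chmp2b held 39.3% ± 3.73 in Control, 48.5% ± 1.56 in MSNP and 39.8 to 42.1% of them in HMSNP. In SNP100 it held 40.2% ± 1.22 and in SNP50 34.9% ± 2.18. Of the counts of Lgals8 and Lgals9, Lgals8 held 74.8% ± 6.46 in Control, 85.4% ± 0.26 in MSNP and 76.9% ± 1.97 in HMSNP. In SNP100 it held 80.8% ± 0.526, above every Control library, and in SNP50 77.6% ± 0.956. In the other 2 pairs Control and MSNP overlapped, with Vps4a at 25.5 to 34.6% of the counts of Vps4a and Vps4b in Control and 30.1 to 30.7% in MSNP, and Chmp1b at 21.2 to 24.8% and 22.6 to 25.3% of those of Chmp1b and Chmp1a.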
